A study of Mus musculus with 6 samples.

Results

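The genes described here are the 42 that encode the main families of proteins that choose splice sites, taken from the 24411 gene symbols counted in each RNA library of the mouse cochlea. They were chosen by gene symbol: the 11 genes named Srsf followed by a number (SR proteins), the 20 genes whose symbol starts with Hnrnp (hnRNPs), 6 SR-related genes (Srrm1, Srrm2, Srrm3, Srrm4, Tra2a and Tra2b), the 2 epithelial regulators Esrp1 and Esrp2, and the 3 RBFOX genes. All 42 were found in the libraries and all 42 passed the filter on low counts.

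The study asked which genes depend on the calcium action potentials that inner hair cells (IHCs) of the cochlea fire before hearing starts. Kir2.1-OE mice carried Otof rtTA+/- together with one copy of a Kir2.1 transgene that is switched on by doxycycline (DOX), so that the potassium channel Kir2.1 was overexpressed in cells with an active Otof promoter, mainly IHCs. Controls were littermates with Otof rtTA+/- and no Kir2.1 transgene, and both groups had a C57BL/6N background. Both were exposed to DOX from conception, through the drinking water (0.5 mg/ml) of the pregnant and then nursing dams. Sensory epithelium was micro-dissected at postnatal day 9 and sequenced after poly(A) selection, with 3 pools per group, each of 8 cochleae from 4 mice of either sex.

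The authors deposited expected counts, which are estimates of the number of reads that belong to each gene. The total per pool was 35430940 to 38193109 in Kir2.1-OE and 37063812 to 41205047 in control. Kcnj2, which encodes Kir2.1 and serves here to check the labels, had 3213 ± 872 (SD, n = 3) normalized counts in Kir2.1-OE and 229.9 ± 5.16 in control, a log2 fold change of 3.80. Normalized counts are the counts scaled to a common library size with TMM factors. None of the 7 markers of hair cells, among them Otof, Pou4f3 and Myo6, was at 0 in all pools. They had summed normalized counts of 42243 to 51931 in Kir2.1-OE and 32527 to 35174 in control. The log2 fold changes were 0.76 for Otof, 0.68 for Calb2, 0.36 for Myo6 and 0.09 for Slc17a8. They were 0.05 for Pou4f3, -0.02 for Pvalb and -0.25 for Gfi1. By the thresholds given below, Otof and Calb2 were called higher and none was called lower. The dissected tissue also held supporting cells, neurons, glia, mesenchyme, cartilage and blood by their markers. In such bulk samples fewer cells of a type and less RNA per cell cannot be told apart. Samples of a group are separate pools, and p-values measure the spread between those pools.

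Pre-mRNA splicing removes introns, and the choice of which exons stay in the mRNA is set by proteins that bind the transcript. SR proteins carry domains rich in arginine and serine and mostly promote the use of nearby splice sites, while hnRNPs coat nascent RNA and often silence exons, so that many exons are set by the balance between the families. Tissue-specific regulators work on top of this: SRRM3 and SRRM4 drive the inclusion of very short neuronal exons, RBFOX proteins act in neurons and muscle, and ESRP proteins set the epithelial forms of many mRNAs. In the ear, loss of Srrm4 function causes deafness in the mouse, where SRRM4 keeps the repressor REST inactive in hair cells through splicing, and ESRP1 variants cause hearing loss in people. The counts are per gene, so exon inclusion itself was not measured.

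The sequences just upstream of the transcription start are shown for 6 SR-related and RBFOX genes, because the Srrm and Rbfox genes and the Tra2 genes lay in opposite directions in the comparison that follows and because their upstream sequences are of different kinds. They were taken from RefSeq (assembly GRCm38.p6), where 37 of the 42 genes had an entry; Esrp1, Esrp2, Hnrnpll, Hnrnpul2 and Rbfox2 had none. Each is the 250 bases before the most upstream start that this RefSeq table lists for the gene, written 5′ to 3′ on the strand of the gene, and capitals mark CG dinucleotides, the sites at which mammalian DNA is methylated. The windows lie at chr11:118761042-118761291 (minus strand) for Rbfox3, chr17:23802937-23803186 (plus) for Srrm2, chr5:135817856-135818105 (plus) for Srrm3, chr5:116591818-116592067 (minus) for Srrm4, chr6:49264053-49264302 (minus) for Tra2a and chr16:22266006-22266255 (minus) for Tra2b. None overlapped an annotated exon. Those of Rbfox3, Srrm2 and Srrm3 lay inside the span of their own gene, in an intron of longer GENCODE transcripts that start further upstream, so their counts below describe an internal start; the other windows lay outside any annotated gene.
Rbfox3: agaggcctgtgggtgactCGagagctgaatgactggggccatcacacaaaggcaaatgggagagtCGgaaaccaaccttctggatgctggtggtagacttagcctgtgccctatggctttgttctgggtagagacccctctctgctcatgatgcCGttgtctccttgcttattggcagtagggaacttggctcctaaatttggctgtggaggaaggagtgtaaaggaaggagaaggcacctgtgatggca
Srrm3: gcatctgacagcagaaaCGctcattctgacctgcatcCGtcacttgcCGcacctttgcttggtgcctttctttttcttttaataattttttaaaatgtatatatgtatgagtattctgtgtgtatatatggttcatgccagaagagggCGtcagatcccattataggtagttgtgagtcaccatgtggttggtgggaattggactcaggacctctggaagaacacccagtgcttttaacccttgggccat
Srrm2: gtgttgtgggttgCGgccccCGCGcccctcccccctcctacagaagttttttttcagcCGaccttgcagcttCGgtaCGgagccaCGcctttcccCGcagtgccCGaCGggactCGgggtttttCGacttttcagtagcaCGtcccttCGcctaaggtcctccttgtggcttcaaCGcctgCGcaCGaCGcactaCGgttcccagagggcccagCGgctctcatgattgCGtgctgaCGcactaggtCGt
Srrm4: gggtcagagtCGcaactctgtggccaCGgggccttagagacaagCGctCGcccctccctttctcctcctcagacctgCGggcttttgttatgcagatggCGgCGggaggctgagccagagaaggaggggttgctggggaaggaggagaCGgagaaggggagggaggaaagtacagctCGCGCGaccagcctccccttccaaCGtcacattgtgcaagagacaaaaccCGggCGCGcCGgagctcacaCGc
Tra2a: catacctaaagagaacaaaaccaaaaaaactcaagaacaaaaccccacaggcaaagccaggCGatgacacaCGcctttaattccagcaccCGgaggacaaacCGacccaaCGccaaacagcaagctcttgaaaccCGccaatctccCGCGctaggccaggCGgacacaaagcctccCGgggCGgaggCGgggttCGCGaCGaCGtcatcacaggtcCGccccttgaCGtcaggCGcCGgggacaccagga
Tra2b: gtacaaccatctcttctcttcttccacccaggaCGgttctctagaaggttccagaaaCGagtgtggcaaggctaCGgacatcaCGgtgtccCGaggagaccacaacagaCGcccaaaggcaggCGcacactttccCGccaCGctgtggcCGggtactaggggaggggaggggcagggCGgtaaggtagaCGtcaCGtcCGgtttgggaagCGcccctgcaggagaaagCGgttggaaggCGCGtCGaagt

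The Rbfox3 and Srrm3 windows held 3 and 4 CG dinucleotides, against 23 in Srrm2, 17 in Srrm4, 20 in Tra2a and 19 in Tra2b. Over the 37 genes with an entry the number ran from 2 to 46 with a median of 23, and over all 27025 genes with an entry the median was 6. The Rbfox1 window had 2, the lowest of the 37, and the 4 genes with 6 or fewer were Rbfox1, Rbfox3, Srrm3 and Hnrnpf. SR protein genes had 17 to 37 and hnRNP genes 6 to 46. Among short motifs searched on both strands, GGGCGG, the letters of a GC box, was found in 26 of the 37 windows and in 33.0% of all genes. CCAAT was found in 19 windows, against 34.5% of all genes, and TATAAA in 3 (Hnrnpm, Srsf2 and Srsf3), against 13.0%. Unlike the printed windows, many of the 37 overlapped annotated exons. The 3 with TATAAA did so over 250 bases (Hnrnpm), 50 bases (Srsf2) and 191 bases (Srsf3). TGACGTCA, the letters of a cyclic AMP response element, was in the Tra2a window alone among the 37 and in 1.6% of all genes. Such matches describe letters in a window and show no binding.

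Most of these genes were strongly expressed in the control cochlea. Levels that are compared between genes are given here as RPKM, that is reads per kilobase of the longest coding transcript, scaled to a common depth. By this measure 35 of the 42 genes lay above the median of all genes tested, which was 6.53. The highest was Hnrnpk, which binds C-rich RNA, at 276 ± 12.2 (SD, n = 3), followed by Hnrnpa2b1 at 223 ± 8.50 and Hnrnpab at 189 ± 7.07. The control pools of Hnrnpk and Hnrnpa2b1 overlapped neither each other nor the next gene, while Hnrnpab, Hnrnpf and Hnrnpa1 (162 ± 17.6) each overlapped the gene below them in the order. Srsf3, at 110 ± 3.14, was the highest SR protein gene and, with 7 hnRNP genes, 1 of the 8 members in the top 5% of all genes. Next among the SR protein genes stood Srsf5 at 81.9 ± 7.76 and Srsf2 at 78.6 ± 3.73, whose pools overlapped.

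At the other end lay genes known from neurons, and just above them the epithelial gene Esrp2 and the SR protein gene Srsf12 (1.82). Srrm4 had the lowest level, 0.293, preceded by Rbfox3 at 0.630, Srrm3 at 0.678, Rbfox1 at 0.977 and Esrp2 at 1.19; the pools of Esrp2, Rbfox1, Srrm3 and Rbfox3 overlapped from each gene to the next. Esrp1, at 17.9, was far above Esrp2, and Rbfox2, at 11.8, far above Rbfox1 and Rbfox3. Of the 41 pairs of neighbours in the order, 28 had overlapping control pools. The level of Hnrnpr (5.89) rests on an annotated transcript of 21452 nt and would be higher with a shorter one. Salmon divides reads that match several sequences, so counts of genes with near-identical copies elsewhere, such as the processed pseudogenes of Hnrnpa1, are less certain.

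**Figure D1:**
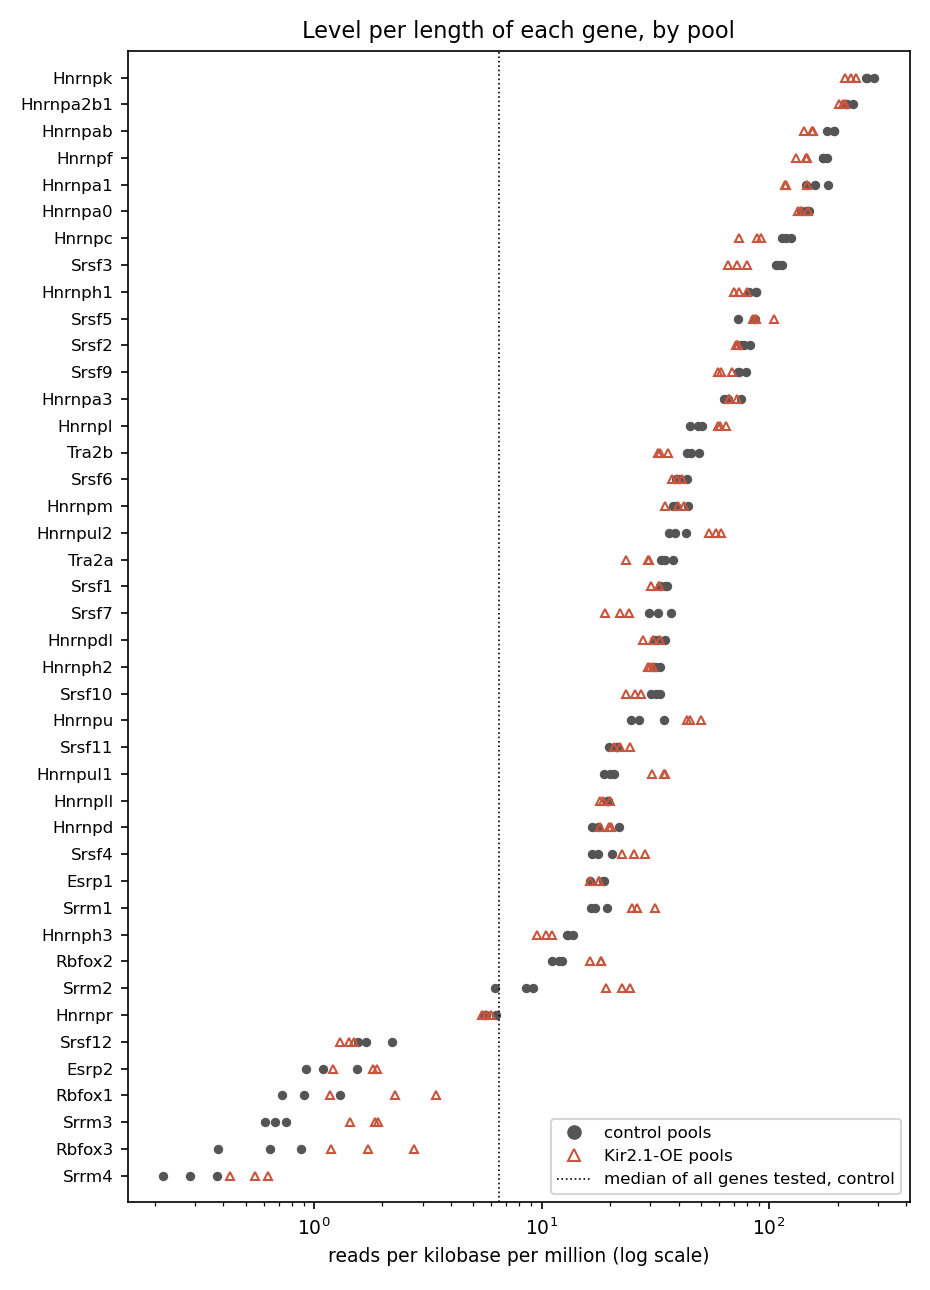
Level of each of the 42 genes in each pool, in RPKM (reads per kilobase, depth-scaled) on a log axis, with control pools as filled circles, Kir2.1-OE pools as open triangles and the median of all genes tested in control (6.53) as a dotted line. Hnrnpk is highest at 276 in control and Srrm4 lowest at 0.293; 35 genes lie above the median, and the Kir2.1-OE triangles of Srrm2, Srrm3 and Rbfox3 lie to the right of all their control circles.

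The comparison of Kir2.1-OE with control was fitted over all 15303 genes that passed the filter, with edgeR's quasi-likelihood test and Benjamini-Hochberg adjustment. A gene is called here when its adjusted p was under 0.05 and its fold change above 1.5, which is 0.585 on the log2 scale. Kir2.1-OE pools gave 8 higher calls (19.0%) and 2 lower calls (4.76%) among the 42 genes, against 15.5% called higher and 5.08% called lower among all genes tested, or 20.5% in either direction. The 8 were Srrm1, Srrm2, Srrm3, Srrm4, Rbfox1, Rbfox3, Hnrnpu and Hnrnpul1, and the 2 were Srsf3 and Srsf7. All 4 Srrm genes were thus called. The core SR and hnRNP families mostly were not, as was so for most genes tested.

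By adjusted p alone, with no threshold on size, 12 of the 42 were higher and 12 lower (28.6% each), against 27.3% and 23.5% of all genes, or 50.8% in either direction. In the other 18 the adjusted p was 0.05 or more, and 14 of the 42 lay within 0.15 of no change on the log2 scale. The median log2 fold change of the 42 was -0.05, against 0.01 over all genes. All 3 Kir2.1-OE pools lay above all 3 control pools in 11 of the genes and below in 17 (40.5%), against 31.7% and 29.9% of all genes. An exact permutation test of 3 pools against 3 cannot give a two-sided p below 0.1 for a single gene. The summed normalized counts of the 42 genes were 243300, 246463 and 252202 in the Kir2.1-OE pools and 256170, 264408 and 248718 in the control pools, so the totals of the groups overlapped.

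**Figure D2:**
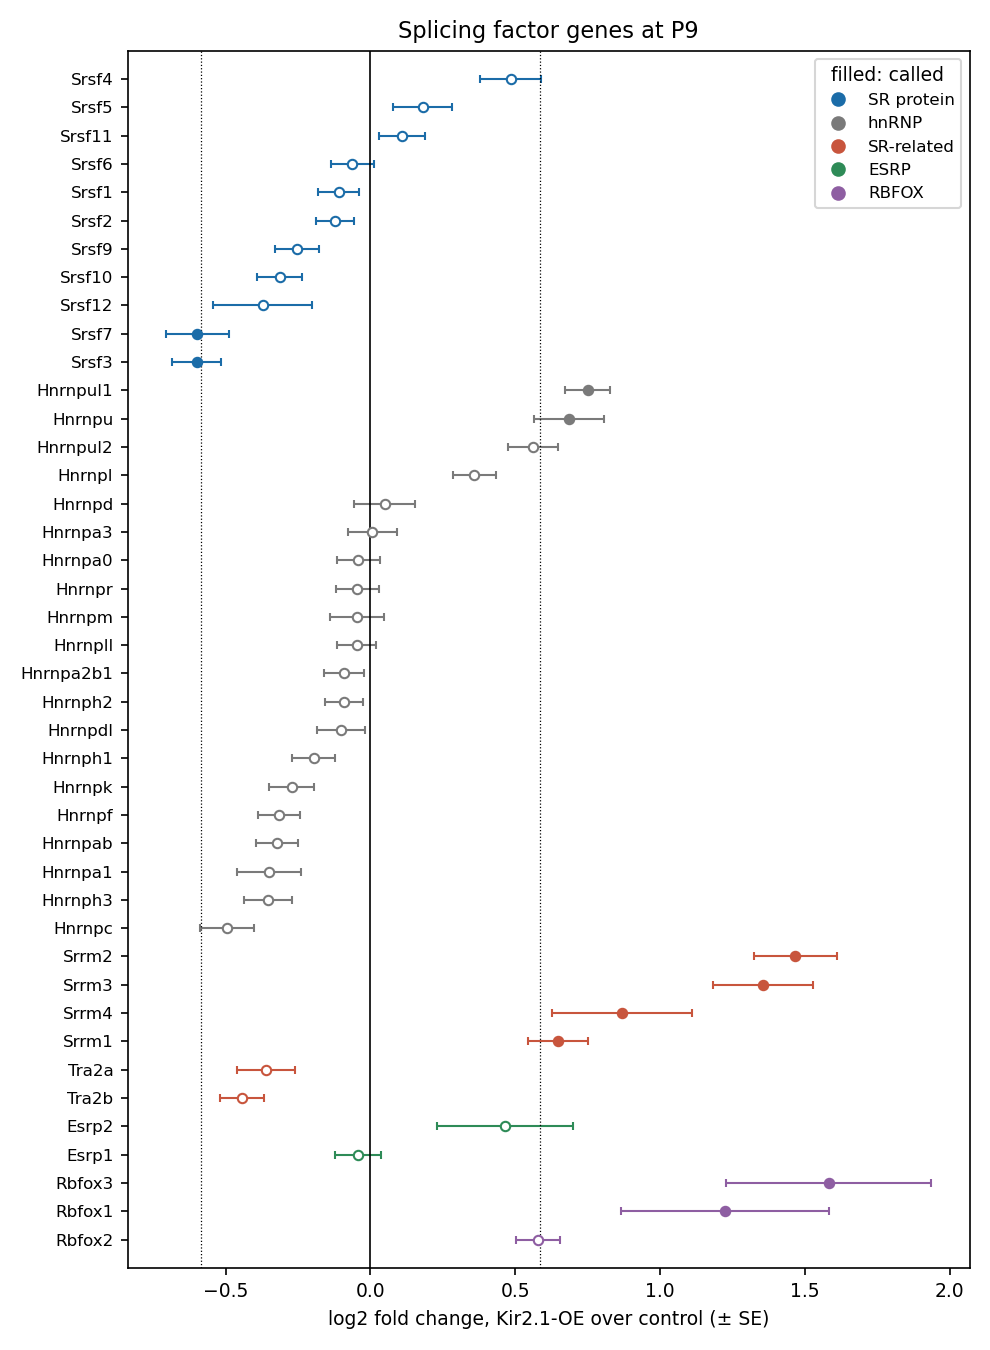
Log2 fold change, Kir2.1-OE over control, of each of the 42 genes by family, with standard errors from the fit over all genes; filled points were called, and dotted lines mark a fold change of 1.5 in each direction. The Srrm genes (0.65 to 1.47), Rbfox1 and Rbfox3 stand to the right, Srsf3 and Srsf7 (-0.60 each) lie at the left line, and most SR protein and hnRNP genes lie between the lines.

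Read counts of genes in these libraries moved with transcript length, which bears on each gene that follows. Over 15187 genes with an annotated length, the log2 fold change and the log2 length of the longest transcript had a Pearson's r of 0.53 and a Spearman's rho of 0.557, across genes that share the same 6 libraries. Genes under 1000 nt had a median log2 fold change of -0.50 and those over 8000 nt one of 0.81, of which 64.0% were called higher. Over the 42 splicing factor genes the values were r = 0.317 and rho = 0.405. The 26 of them between 2000 and 4000 nt had a median of -0.08, against -0.06 over all genes of that length, and the 12 between 4000 and 8000 nt had 0.03, against 0.30.

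The model was therefore also fitted with offsets that remove, in each library, the smooth dependence of a gene's count on transcript length and GC content relative to the average library. With these offsets 4 of the 42 were called higher (9.52%) and 1 lower (2.38%), against 6.87% and 2.97% of all genes. The 4 were Srrm2, Srrm3, Rbfox1 and Rbfox3. Hnrnpr alone was then called lower, at -0.98 against -0.05 without offsets. For this gene the offsets used a transcript of 21452 nt, and with those from the coding transcript of median length its value was 0.03.

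**Figure D3:**
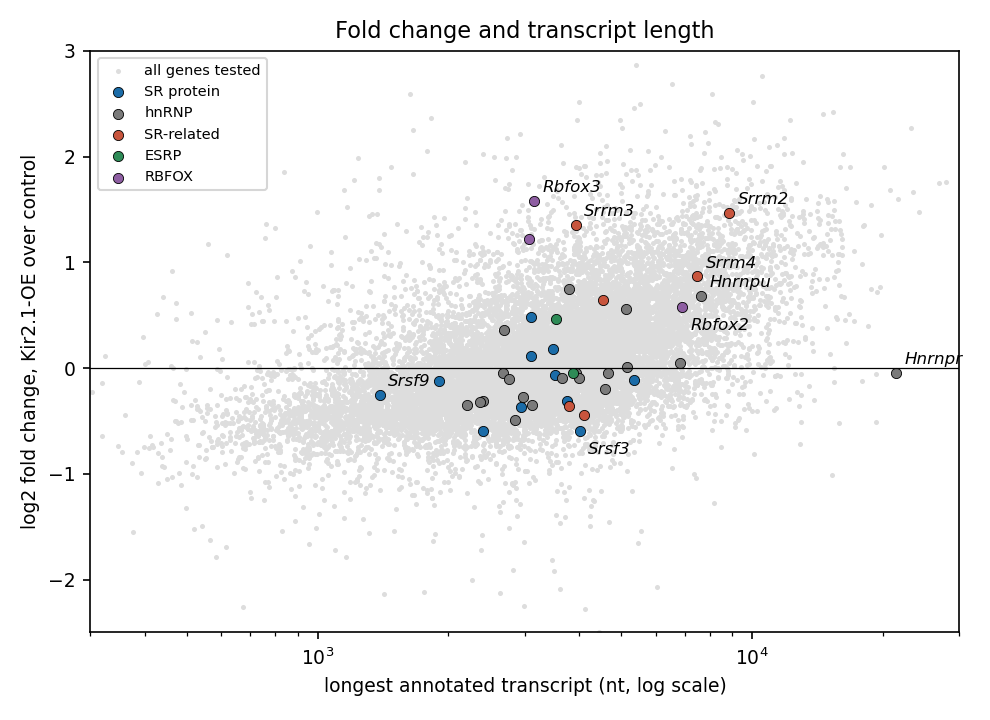
Log2 fold change, Kir2.1-OE over control, against the length of the longest annotated transcript on a log axis, for all genes tested (grey) and for the 42 splicing factor genes coloured by family. The grey cloud rises from a median of -0.50 under 1000 nt to 0.81 over 8000 nt; Srrm2, Srrm4, Hnrnpu and Rbfox2 have long transcripts, and Rbfox3 (1.58) and Srrm3 (1.36) stand well above genes of their own length.

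The Srrm genes were higher in Kir2.1-OE and the Tra2 genes lower. Their proteins share arginine- and serine-rich domains but SRRM1 and SRRM2 lack the RNA-binding domain of SR proteins and work as co-activators, with SRRM2 also a scaffold of nuclear speckles, whereas TRA2 proteins bind purine-rich enhancers within exons. The 4 Srrm genes together had 13122, 11382 and 10616 normalized counts in the Kir2.1-OE pools and 5730, 5766 and 4579 in the control pools, a ratio of the means of 2.19. Tra2a and Tra2b together had 5732, 6247 and 6599 against 8835, 7830 and 8170, a ratio of 0.748. In neither sum did the groups overlap.

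Srrm2 (chr17:23790532-23824741, GRCm38) had 8180.5, 7508 and 6394 normalized counts in the Kir2.1-OE pools and 3067, 2831 and 2086 in the control pools. Every Kir2.1-OE pool held more than 2 times the count of any control pool. Its log2 fold change was 1.47 ± 0.14 (SE), adjusted p = 1.53e-04, which is 2.77-fold and higher than in 98.3% of all genes tested. In edgeR's glmTreat test, which asks for a log2 fold change beyond 0.6 and called 5.44% of all genes higher and 0.372% lower, its adjusted p was 0.00287. With the offsets for length and GC content the log2 fold change was 0.71, at a transcript length of 8864 nt.

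Srrm3 (chr5:135806890-135874772), one of the pair of Srrm genes that act on very short neuronal exons, had 274, 212 and 282 in the Kir2.1-OE pools and 111, 99.0 and 89.6 in the control pools. The groups lay far apart relative to their spread. Its log2 fold change was 1.36 ± 0.17, adjusted p = 3.37e-04, and 0.90 with the offsets; glmTreat gave an adjusted p of 0.0082. Srrm2 and Srrm3 were the only 2 of the 42 genes that passed glmTreat, and none passed it in the lower direction.

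Srrm4 (chr5:116439275-116591817), the other gene of that pair and a deafness gene in the mouse, had 154, 120 and 177 in the Kir2.1-OE pools and 105, 80.0 and 61.1 in the control pools. No pool of one group reached into the range of the other, though the lowest Kir2.1-OE pool and the highest control pool were close. The difference was 0.87 ± 0.24 on the log2 scale, adjusted p = 0.0141. The call was not kept with the offsets, where the value was 0.23 (adjusted p = 0.5). Nor was it kept with offsets from the longest coding transcript (0.14, adjusted p = 0.701). With the offsets and a block for the replicate number it was also lost (0.23, adjusted p = 0.566). It was kept with offsets from the coding transcript of median length (0.72, adjusted p = 0.0456). With glmTreat the adjusted p was 0.397.

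Srrm1, whose protein joins splicing complexes and the exon junction complex, had 4513, 3543 and 3763 in the Kir2.1-OE pools and 2446, 2756 and 2343 in the control pools. All Kir2.1-OE pools were higher. On the log2 scale the difference was 0.65 ± 0.10, adjusted p = 9.20e-04, just past the threshold on size, and 0.55 with the offsets, where it was not called. Without Kir2.1-OE replicate 1 it was 0.53, and with upper quartile scaling 0.56, again under the threshold.

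Tra2b had 4142, 4242 and 4610.2 in the Kir2.1-OE pools and 6269, 5567 and 5825 in the control pools, and Tra2a had 1591, 2005 and 1989 against 2566, 2263 and 2344. For both genes every Kir2.1-OE pool lay below every control pool. The log2 fold changes were -0.44 ± 0.08 (adjusted p = 0.00134) for Tra2b and -0.36 ± 0.10 (adjusted p = 0.0135) for Tra2a, both short of 1.5-fold. With the offsets they were -0.34 and -0.32. With offsets from the longest coding transcript they were -0.31 for Tra2b and -0.03 for Tra2a. With those from the coding transcript of median length both were -0.15, at adjusted p-values of 0.0821 for Tra2b and 0.213 for Tra2a.

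Rest, which encodes a repressor of neuronal genes and whose mRNA is a splicing target of SRRM4 in hair cells, was set beside these genes. It had 1330.2, 1151 and 1053 normalized counts in the Kir2.1-OE pools and 462, 493 and 418 in the control pools. The groups did not overlap, and the log2 fold change was 1.36 ± 0.11, adjusted p = 1.20e-04, and 0.90 with the offsets, where it was also called. Which Rest exons were present in these mRNAs was not measured.

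**Figure D4:**
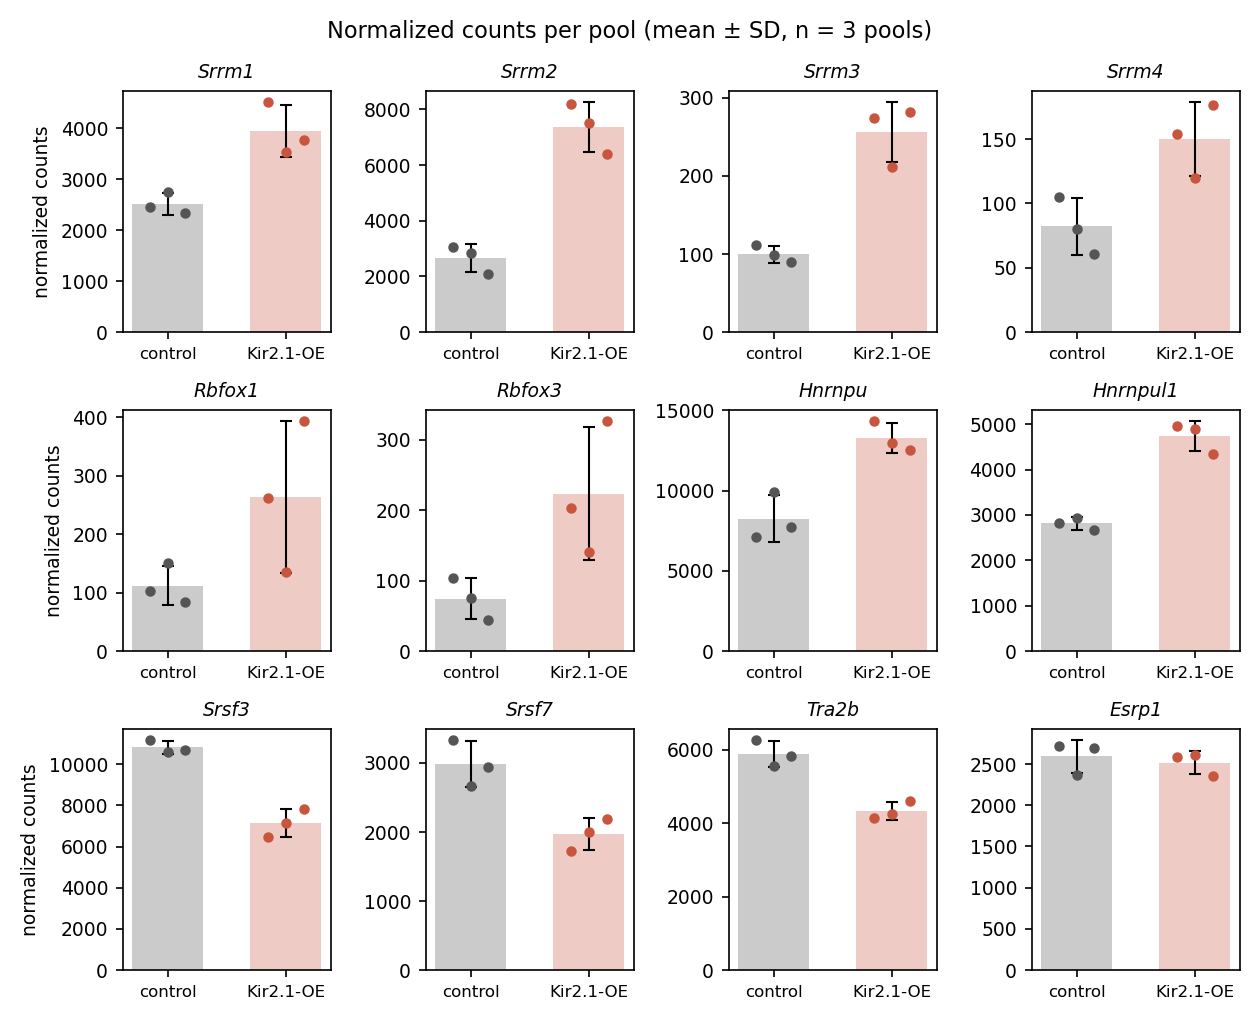
Normalized counts of 12 genes in each pool (points), with bars for the group mean, which start at 0, and error bars for the SD (n = 3 pools). Kir2.1-OE pools lie above control pools in the Srrm genes, Rbfox3, Hnrnpu and Hnrnpul1 and below them in Srsf3, Srsf7 and Tra2b; the groups overlap in Rbfox1 and Esrp1.

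Of the 3 RBFOX genes, Rbfox3 and Rbfox1 were called higher in Kir2.1-OE, with a wide spread between pools, and Rbfox2 was not called. RBFOX proteins bind the RNA motif UGCAUG next to alternative exons; RBFOX3 is the antigen known as NeuN, a marker of neuronal nuclei, and RBFOX1 is found mainly in neurons and muscle. Rbfox3 (chr11:118489762-118911597) had 203, 141 and 327 in the Kir2.1-OE pools and 103, 75.4 and 44.8 in the control pools. The pools did not overlap, but they differed by more than 2-fold within each group. Its log2 fold change was 1.58 ± 0.36, adjusted p = 0.0051, the largest of the 42 genes, and 1.38 with the offsets. With the offsets and a block for the replicate number together, the value was 1.33 and the call was lost (adjusted p = 0.0606).

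Rbfox1 (chr16:5885355-7411526) had 262, 135 and 394 in the Kir2.1-OE pools and 103, 150 and 83.5 in the control pools. Kir2.1-OE replicate 2 lay below control replicate 2, so the groups overlapped. Rbfox1 had a log2 fold change of 1.22 ± 0.36, adjusted p = 0.0181, and 1.36 with the offsets. The call was lost in the fits that dropped replicate 1 (1.21) or replicate 3 (0.80) of Kir2.1-OE, or replicate 3 of control (1.05).

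Rbfox2, which is found in many tissues, had 4730, 4224 and 4737 in the Kir2.1-OE pools and 3099, 3182 and 2888 in the control pools. Its pools were far apart and tight. At 0.58 ± 0.08 (adjusted p = 3.69e-04) it lay just under the threshold on size, and with the offsets the direction turned to -0.02, at a transcript length of 6907 nt. It was called with the offsets from the coding transcript of median length (0.70), and in the fits that dropped replicate 2 of Kir2.1-OE (0.61), replicate 1 of control (0.59) or replicate 2 of control (0.61). The coefficient of variation between pools was 49.1% in Kir2.1-OE for Rbfox1 and 6.44% for Rbfox2, against a median of 7.06% over the 42 genes.

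Markers of neurons and of other cells differed between the same pools. The summed counts of Nefl, Nefm and Nefh, which encode the neurofilament subunits, were 24518, 14200 and 36528 in the Kir2.1-OE pools and 5964, 8890 and 4530 in the control pools. Among the Kir2.1-OE pools replicate 3 was highest and replicate 2 lowest, which was also the order for Rbfox3, Rbfox1, Srrm3 and Srrm4. Among the control pools the neurofilament sum and Rbfox1 were highest in replicate 2, and Rbfox3, Srrm3 and Srrm4 in replicate 1. Over the whole list of 12 neuronal markers, 4 were called higher (Nefl, Nefm, Nefh and Snap25) and 1 lower (Uchl1, -0.80). Syt1 (-0.13) and Gap43 (-0.12) were also negative but not called. In Uchl1, Syt1 and Gap43 the lowest Kir2.1-OE pool was replicate 1, so they did not follow the order of the neurofilament genes. None of the 12 was at 0 in all pools. The summed counts ran from 43221 to 75907 in Kir2.1-OE and from 33555 to 44928 in control, with overlap. Of the 8 markers of Schwann cells and glia, 4 were called higher, with sums of 361805 to 480088 against 260741 to 332032. The sums also lay apart for 8 markers of cartilage and bone (813191 to 960712 against 392136 to 544328) and 4 of endothelium (4483 to 4837 against 2198 to 3168). Those of 5 erythrocyte markers lay apart in the other direction (10855 to 13789 against 17917 to 44664). The sums of the 7 hair cell markers given above did not overlap either. With the offsets the log2 fold changes of these markers were -0.02 for Otof, -0.07 for Myo6 and 0.98 for Calb2. They were 0.46 for Pvalb, 0.14 for Pou4f3, 0.05 for Slc17a8 and -0.37 for Gfi1. For 8 supporting cell markers the sums were 125180 to 144407 against 111325 to 122080, and for 6 macrophage markers 6203 to 6599 against 5544 to 5848. The 5 melanocyte markers had sums of 13606 to 16263 against 8208 to 9952. Kcnj10 made up most of these sums, with means of 14446 in Kir2.1-OE and 8341 in control, and it alone was called higher. Dct (-1.81) and Tyr (-2.07) were called lower. Pmel (-0.48) was negative but not called, and Mlana was not tested. Sums overlapped for fibrocytes, outer hair cells, epithelium and proliferating cells. The part of these cells in the result for the Srrm and Rbfox genes was not tested.

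Esrp1 and Esrp2, which set epithelial splicing, did not pass the test. Esrp1 (chr4:11331933-11386783) had 2585, 2605 and 2358 normalized counts in the Kir2.1-OE pools and 2722, 2365 and 2692 in the control pools. The groups overlapped almost fully. Its log2 fold change was -0.04 ± 0.08, adjusted p = 0.674, and -0.11 with the offsets; over the fits that left out each pool in turn it lay between -0.11 and -0.01. Beside it, the summed counts of 6 epithelial markers were 49771 to 56582 in Kir2.1-OE and 54374 to 59023 in control, with 1 of the 6 called lower (Cldn6) and none called higher.

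Esrp2, which was far less abundant, had 241, 251 and 161 in the Kir2.1-OE pools and 206, 123 and 146 in the control pools. These pools also overlapped. The log2 fold change was 0.46 ± 0.23, adjusted p = 0.125. It was called in the fits that left out the third Kir2.1-OE pool (0.63) or the first control pool (0.70).

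Among the SR proteins 2 of 11 genes were called lower (18.2%, against 5.08% of all genes) and none higher (against 15.5%). Their summed counts were 42493, 42413 and 43069 in the Kir2.1-OE pools and 48631, 48957 and 48018 in the control pools, a ratio of 0.879, with no overlap. The median log2 fold change of the 11 was -0.12, and with the offsets it was 0.06 and none of the 11 was called. Srsf3 carries most of the difference in the sum.

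Srsf3 (chr17:29032628-29043373), the smallest SR protein and an adaptor for mRNA export, had 6463, 7129 and 7838 in the Kir2.1-OE pools and 11176, 10592 and 10708 in the control pools. The control pools were close together and all well above the Kir2.1-OE pools. Srsf3 had a log2 fold change of -0.60 ± 0.08, adjusted p = 5.00e-04, and -0.51 with the offsets. Srsf7, its nearest relative and also an export adaptor, had 1720.3, 2002 and 2186 against 3332, 2667 and 2940, without overlap. Srsf7 had a log2 fold change of -0.60 ± 0.11, adjusted p = 0.00172, and -0.32 with the offsets. Both lay close to the threshold on size, and both calls were lost in the fits that dropped replicate 1 of Kir2.1-OE (-0.55 and -0.52) or of control (-0.58 and -0.51).

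Srsf4 was the highest of the family, with 2422, 2159 and 1918 in the Kir2.1-OE pools and 1413, 1732 and 1498 in the control pools. It was the only one of the 11 genes whose Kir2.1-OE pools all lay above the control pools. The log2 fold change was 0.48 ± 0.11 (adjusted p = 0.00435), and 0.45 with the offsets. Srsf5, a close relative of Srsf4, followed at 0.18 (adjusted p = 0.17), with overlapping pools.

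Srsf9 and Srsf10 were lower at an adjusted p under 0.05 but by less than 1.5-fold, at -0.25 and -0.31; with the offsets the direction of Srsf9, the shortest transcript of the 42 at 1392 nt, turned to 0.12. Srsf2, an abundant SR protein, had 5181, 5129 and 5117 against 5531, 5892 and 5373. Its pools did not overlap, yet its log2 fold change was -0.12 ± 0.07 (adjusted p = 0.151), and the offsets turned it to 0.13. The other 4 genes (Srsf1, Srsf6, Srsf11 and Srsf12) had log2 fold changes of -0.37 to 0.11 and adjusted p-values of 0.0975 or more. Their values overlapped between the groups in Srsf6 and Srsf11 only.

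Among the 20 hnRNP genes 2 were called higher (10%, against 15.5% of all genes) and none lower (against 5.08%). Both belong to the U type, large nuclear proteins that bind RNA and chromatin: HNRNPU, also known as scaffold attachment factor A, and its relative HNRNPUL1. Summed over the 20 genes the counts were 173932, 179065 and 183943 in the Kir2.1-OE pools and 186741, 195960 and 182097 in the control pools, a ratio of 0.951 with overlap. The median log2 fold change was -0.07, both with and without the offsets.

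Hnrnpul1 (chr7:25721165-25754757) had 4965, 4889 and 4349 in the Kir2.1-OE pools and 2832, 2943 and 2671 in the control pools. The groups stood well apart. Its log2 fold change was 0.75 ± 0.08, adjusted p = 1.66e-04, and 0.56 with the offsets, which is under the threshold on size. Hnrnpu (chr1:178321108-178337797) had 14333, 12945 and 12557 against 7116, 9936 and 7711. No pools overlapped, with a wider spread in control. The log2 fold change was 0.69 ± 0.12, adjusted p = 0.00155, and 0.38 with the offsets. Hnrnpul2, the third gene of this type, had 0.56 ± 0.09 (adjusted p = 7.91e-04), just under the threshold, and was called when the third Kir2.1-OE pool (0.59) or the second control pool (0.63) was dropped.

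At the lower end stood Hnrnpc, whose protein binds runs of uridine, with 7914, 9456 and 9846 in the Kir2.1-OE pools and 13394, 12228 and 12704 in the control pools. The groups did not overlap. Hnrnpc had a log2 fold change of -0.49 ± 0.09, adjusted p = 0.00207, and -0.28 with the offsets. Hnrnph3, a protein that binds G-rich RNA, followed at -0.35 ± 0.08 (adjusted p = 0.00619), and -0.08 with the offsets.

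The most abundant hnRNPs were slightly lower or level. Hnrnpk had 24018, 25441 and 26945 in the Kir2.1-OE pools and 32309, 29771 and 30179 in the control pools, a log2 fold change of -0.27 ± 0.08 (adjusted p = 0.0155). Hnrnpab, which binds AU-rich RNA, had 12649, 13847 and 13750 against 17123, 17159 and 16052, at -0.32 ± 0.07 (adjusted p = 0.00522). In both genes all Kir2.1-OE pools lay below all control pools; with the offsets the values were -0.07 and -0.16. Hnrnpa2b1, a protein with roles in splicing and RNA transport, had 13164, 13639 and 14010 against 14097, 15122 and 14258, at -0.09 ± 0.07 (adjusted p = 0.298). Its direction turned to 0.15 and 0.26 with offsets taken from coding transcripts.

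Hnrnpa1, a classical silencer of exons, was lower at -0.35 (adjusted p = 0.0253) with overlapping pools, Hnrnpf at -0.31 (adjusted p = 0.00604) without overlap. Hnrnpl, which binds CA repeats, was higher at 0.36 (adjusted p = 0.00339). The other 9 genes (Hnrnpa0, Hnrnpa3, Hnrnpd, Hnrnpdl, Hnrnph1, Hnrnph2, Hnrnpll, Hnrnpm and Hnrnpr) lay between -0.20 and 0.05, with adjusted p-values of 0.0516 or more. In all of these 9 except Hnrnpa0 and Hnrnpm some form of the offsets turned the direction, and in Hnrnpa3 and Hnrnpd another scaling between libraries did so too.

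Across the 42 genes the more abundant had the lower log2 fold changes. The log2 fold change and the log2 level per length in the control pools had a Pearson's r of -0.678 and a Spearman's rho of -0.578 (n = 42 genes). The same correlation over all genes was not computed. The genes share the same libraries, the control level enters both measures, being also what the fold change is taken against, and no p is given. The 4 lowest levels, those of Srrm4, Rbfox3, Srrm3 and Rbfox1, all belonged to genes called higher.

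The rest of the splicing machinery was read from lists of other genes. Of 37 core spliceosome genes 2 were called higher (5.41%, against 15.5% of all genes) and 5 lower (13.5%, against 5.08%). The 3 lowest among those called were Snrpg (-0.90), Snrpe (-0.72) and Snrpd2 (-0.70), which encode small Sm proteins, the ring around most spliceosomal snRNAs, and the 2 higher ones were Prpf40b (0.81) and Prpf8 (0.77), the latter a large protein at the catalytic centre. With the offsets none was called higher and 1 lower, which was Snrpc (-0.79), not one of the 5 and named here after its value was seen; its longest annotated transcript has 6107 nt and its longest coding one 1013 nt, and with offsets from the longest coding transcripts no gene of these other lists was called lower.

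Of 47 other regulators of alternative splicing 46 were tested, and 10 were called higher (21.7%, against 15.5% of all genes) and none lower (against 5.08%). The highest among those called were Elavl3 (2.27), Nova2 (1.15) and Elavl4 (1.10), which encode neuronal RNA-binding proteins. With the offsets 4 of the 46 were called higher (8.70%, against 6.87% of all genes), which were Elavl3, Elavl4 and, named after their values were seen, Rbm25 (0.96) and Taf15 (0.71). Elavl4 had 1207, 778 and 2162 normalized counts in the Kir2.1-OE pools and 668, 799 and 459 in the control pools, with overlap, and was not called once the third pool of Kir2.1-OE (0.61) or of control (0.91) was dropped.

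None of 11 genes for SR protein kinases and import was called, against 15.5% of all genes called higher and 5.08% called lower. By adjusted p alone 5 of the 11 were higher, against 27.3% of all genes, and none was lower, against 23.5%. With the offsets Clk4 (0.61) was called higher, 9.09% of the 11, against 6.87% of all genes. Of 19 genes of the exon junction complex and of nonsense-mediated decay, the pathway that destroys mRNAs with premature stops, 7 were called higher (36.8%, against 15.5% of all genes) and none lower. Upf1 (1.40) and Smg1 (1.39), which encode the central helicase and the kinase that phosphorylates it, were the highest. Upf1 had 2996, 2513 and 2171 against 930.04, 1064 and 908, without overlap. By adjusted p alone 11 of the 19 were higher and 5 lower, against 27.3% and 23.5% of all genes. The 5, named after their values were seen, were the exon junction genes Magoh (-0.58), Magohb (-0.40), Sap18 (-0.33), Rbm8a (-0.30) and Eif4a3 (-0.21). In each of them all Kir2.1-OE pools lay below all control pools. With the offsets 5 of the 19 were called higher (26.3%, against 6.87% of all genes), Upf1 among them at 0.93, while Smg1 was not called, at 0.51.

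**Figure D5:**
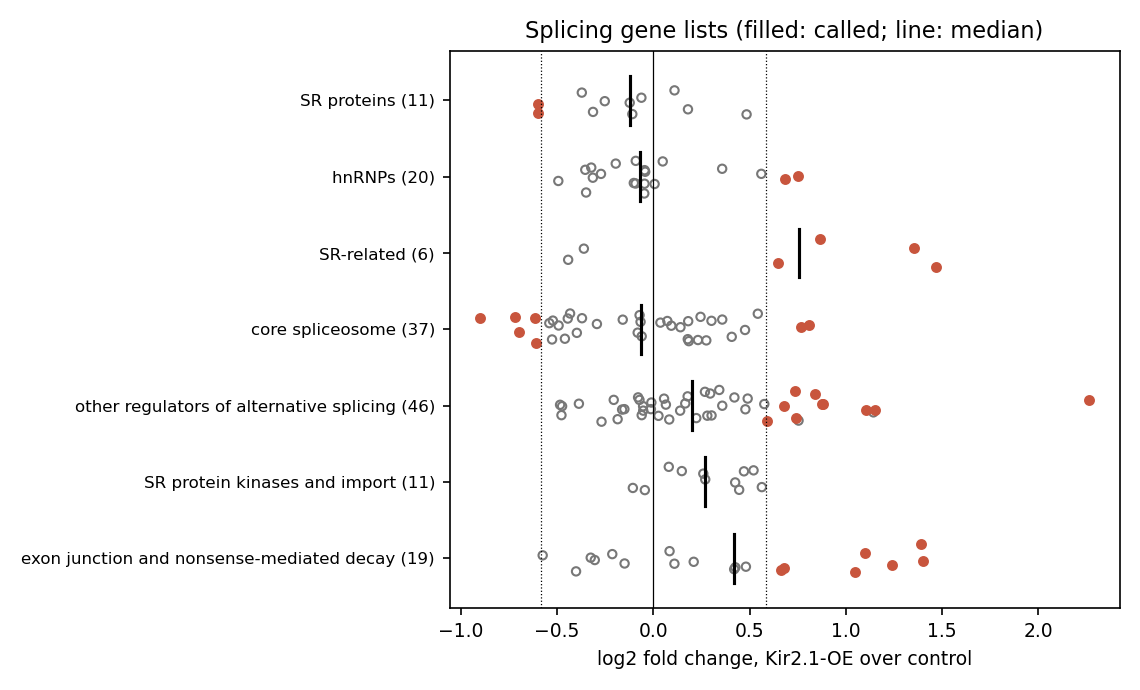
Log2 fold change, Kir2.1-OE over control, of each gene tested in 7 lists of splicing genes (number tested in brackets), with called genes filled, list medians as thick bars and dotted lines at a fold change of 1.5. Called higher were 4 of 6 SR-related genes, 10 of 46 other regulators of alternative splicing and 7 of 19 genes of the exon junction and nonsense-mediated decay, and called lower were 2 of 11 SR proteins and 5 of 37 core spliceosome genes; of all genes tested 15.5% were called higher and 5.08% lower.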

How the data were processed

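Poly(A) RNA from 3 Kir2.1-OE and 3 control pools was sequenced in pairs of reads. The authors ran an nf-core pipeline with Salmon on mm10 and deposited expected counts per gene, neither scaled for depth nor divided by length; tool versions, annotation and strand setting are not given in the sources used here. Of the values, 6.95% were not whole, and all were rounded. Genes were tested in edgeR 4.0.16 (R 4.3.3; limma 3.58.1) with TMM, filterByExpr, glmQLFit and glmQLFTest, without covariates, with Benjamini-Hochberg adjustment over 15303 genes. The authors used DESeq2, which served here as an alternative (version 1.42.0). Pools of a group differed by more than counting noise (chi-square divided by its degrees of freedom, 15.7 to 31.1), so none was a copy of another. Lengths came from GENCODE M21, which matched 23376 symbols directly, 654 through an older symbol and all 42 splicing factor genes. The loess span for the offsets was 0.4. The test was checked on simulated data. Gene lists and members were chosen with earlier results of these data known. Named were Kcnj2, Rest, every gene outside the Srsf and Hnrnp families, in those families the called, most abundant (3 each) and most extreme (2 at each end) genes and those whose direction turned, and up to 3 called genes at each end of every other list, except that 1 is not reported here. Alternatives were other scalings (DESeq2 size factors, library size, upper quartile), no filter or a minimum of 10 counts, a replicate block, the offsets alone and with the block, DESeq2's Wald test, limma-voom, glmTreat, no fold change threshold and each pool left out. Offsets from coding transcripts were added after seeing the data. Authors' comparisons were not used.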

Additional observations from a re-analysis of the deposited data

How the results depend on the processing

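The counts of called splicing factor genes (8 higher, 2 lower), of genes called in the other splicing lists (20 and 5) and of all genes called (2365 and 778) depended most on the correction for length and GC content and on the threshold. With the offsets they were 4 and 1, 11 and 1, and 1052 and 454. With the offsets from the longest coding transcript they were 4 and 1, 13 and 0, and 934 and 421, and with those from the coding transcript of median length 6 and 0, 12 and 2, and 1223 and 440; both were chosen after seeing the data. With glmTreat and a bound of 0.6 they were 2 and 0, 7 and 1, and 832 and 57. With no fold change threshold they were 12 and 12, 47 and 23, and 4184 and 3590. Upper quartile scaling left 7 and 2 of the 42, gave 9 lower in the other lists and 1378 lower over all genes, moved the median of all genes to -0.08 and took the share of calls that were higher from 75.2% to 57.9%. The same 10 of the 42 genes were called with DESeq2's size factors, library size alone, no filter, a minimum of 10 counts, DESeq2's Wald test and limma-voom. Leaving out each pool in turn gave 6 to 10 higher and 0 to 2 lower of the 42, 17 to 23 and 3 to 9 in the other lists, and 1878 to 2527 and 536 to 1074 over all genes.

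The replicate numbers do not pair the pools: pools with the same number deviated from their group means with correlations of -0.106, -0.232 and -0.213, and the column header for control replicate 1 carries the number 4. With the replicate block 7 of the 42 were higher and 2 lower, Rbfox1 being lost at 1.14. With the offsets and the replicate block together they were 2 and 1, Rbfox1 and Rbfox3 not being called, with 9 and 1 in the other lists and 775 and 378 over all genes.

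The direction of 12 of the 42 genes, none of them among the 10 called, turned under some of these alternatives without a pool left out. With the offsets, the offsets with the replicate block and the offsets from the longest coding transcript the log2 fold changes were -0.0246, -0.0208 and -0.0405 for Hnrnpa3, -0.222, -0.214 and -0.249 for Hnrnpd, 0.0635, 0.0614 and 0.0314 for Hnrnpdl, -0.0217, -0.0245 and -0.0711 for Rbfox2, 0.130, 0.132 and 0.110 for Srsf2, 0.0625, 0.0621 and 0.0316 for Srsf6, and 0.123, 0.121 and 0.0936 for Srsf9. Hnrnph2 had 0.00201 and 0.00299 with the first and second of these. With the longest coding transcript Hnrnph1 had 0.00329, Hnrnpll 0.0547 and Hnrnpa2b1 0.257. With the coding transcript of median length Hnrnpa2b1 had 0.147, Hnrnph2 0.0635, Hnrnpr 0.0319, Srsf2 0.0118 and Srsf6 0.325. Upper quartile scaling gave -0.0824 for Hnrnpa3 and -0.0397 for Hnrnpd, and DESeq2's size factors and Wald test gave -0.00304 and -0.00307 for Hnrnpa3. Leaving out a pool turned 4 genes, with ranges of -0.0480 to 0.0827 for Hnrnpa3, -0.0313 to 0.174 for Hnrnpd, -0.121 to 0.0270 for Hnrnpm and -0.0931 to 0.00978 for Hnrnpr. The cause of these turns was not tested. Genes with few counts, such as Srrm4 at 61.1 to 177 normalized counts per pool, carry more counting error than the abundant ones.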
